A study of Rattus norvegicus with 16 samples.

Results

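The voltage-gated potassium (Kv) channel genes described here are Kcna1, Kcna2, Kcna4, Kcnb2, Kcnd1, Kcnd3, Kcns1, Kcns3 and Kcnq3. They were taken as every Affy_ID (Affymetrix probe set) whose single annotated gene was one of these 9 genes, which gave 13 Affy_IDs of the 31042 tested. Kcna2 and Kcnq3 had 2 Affy_IDs each and Kcnd3 had 3, and where a gene had several, the one with the highest mean over the 16 arrays stands for the gene. The other 6 genes had 1 Affy_ID each. Of the 13 Affy_IDs, 11 had a mean log2 value over 4.

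The mRNA came from the L4/L5 dorsal root ganglia (DRG) of Sprague-Dawley rats, collected 7 days after surgery. In spared nerve injury (SNI) the tibial and common peroneal branches of the sciatic nerve are tied and cut and the sural branch is kept. In sham surgery the nerves are exposed and left whole. The groups were adult SNI (n = 3 arrays), adult contralateral (the DRG of the side without surgery, n = 3) and adult sham (n = 3), from male rats 2 months old, and young SNI (n = 2), young contralateral (n = 2) and young sham (n = 3), from pups operated on at 10 days and collected at 17 days of age. The sex of the pups is not given. Each array held RNA pooled from 3 adult rats (6 DRG) or 4 pups (8 DRG), so the errors printed here are between pools. A DRG holds injured neurons, neighbours with intact axons, satellite glia, Schwann cells and immune cells, and in such a sample fewer cells of a type and less RNA per cell cannot be told apart.

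Kv channels open when the membrane depolarises and let potassium leave the cell, which ends the action potential and limits repetitive firing. Channels of the Kv1 (Kcna), Kv2 (Kcnb), Kv4 (Kcnd) and Kv7 (Kcnq) families form from pore-forming alpha subunits. The Kv9 subunits (Kcns) carry no current of their own and change the gating and the surface level of Kv2 channels with which they assemble. In sensory neurons, Kv1 channels sit beside the nodes of Ranvier and at the soma, Kv4 channels carry the rapidly inactivating A-type current, and Kv7 channels carry the M-current that holds the cell near rest.

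The promoters of Kcna2, Kcns1 and Kcns3 are shown because these were the genes called in the adult injury comparison, Kcna2 in the fit of all 16 arrays and Kcns1 and Kcns3 beside it when a young SNI array was left out. Each is the 250 bases before a RefSeq transcript start in the GRCr8 build, written 5′ to 3′ on the gene's strand. Kcna2 lies on chr2:197393280-197393529 (plus strand), Kcns1 on chr3:173262347-173262596 (minus strand) and Kcns3 on chr6:39584106-39584355 (minus strand). Capitals mark GC boxes (GGGCGG or its complement CCGCCC) and, in Kcns1 and Kcns3, an MZF1 motif (TGGGGA, here as its complement TCCCCA). No motif overlapped another.
Kcna2: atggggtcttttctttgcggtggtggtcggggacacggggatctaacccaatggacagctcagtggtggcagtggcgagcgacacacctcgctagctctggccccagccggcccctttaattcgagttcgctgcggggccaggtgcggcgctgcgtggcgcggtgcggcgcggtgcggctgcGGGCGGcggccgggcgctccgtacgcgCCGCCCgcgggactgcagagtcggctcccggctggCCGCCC
Kcns1: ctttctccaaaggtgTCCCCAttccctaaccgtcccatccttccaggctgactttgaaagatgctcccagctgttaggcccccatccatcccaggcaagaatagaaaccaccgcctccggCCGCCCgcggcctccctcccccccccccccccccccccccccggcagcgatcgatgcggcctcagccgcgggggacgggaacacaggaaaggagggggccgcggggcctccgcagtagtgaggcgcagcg
Kcns3: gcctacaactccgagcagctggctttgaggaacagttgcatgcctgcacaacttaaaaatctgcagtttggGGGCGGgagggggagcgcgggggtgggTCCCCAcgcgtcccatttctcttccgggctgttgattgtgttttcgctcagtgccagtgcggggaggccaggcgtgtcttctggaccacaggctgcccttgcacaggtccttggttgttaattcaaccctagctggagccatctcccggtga
Kcna2 held 3 GC boxes and no MZF1 motif in these letters, and Kcns1 and Kcns3 held 1 of each. A GC box was present in 30.5% and the MZF1 motif in 22.6% of 33469 promoter stretches of the same length. The cyclic AMP response element (TGACGTCA), the AP-1 motif (TGACTCA) and the NRF1 core (GCGCATGC), searched on both strands, were in none of these 3 stretches and in 1.59%, 4.05% and 2.2% of all stretches. The GC content was 72.4% for Kcna2, 68.8% for Kcns1 and 59.2% for Kcns3, against a median of 51.2% over all stretches. The Kcna2 stretch lies within the annotated span of that gene, before the start used here, and part of the Kcns1 stretch lies within its gene's span. The other listed members were Kcnd3 with 1 GC box and Kcna4 with none of the 5 motifs, and Kcns3 has a second listed start with 2 GC boxes. Kcna1, Kcnb2, Kcnd1 and Kcnq3 were not among the listed promoters.

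Neuronal genes were high in every array, with a mean log2 value over 13 pan-neuronal genes of 12.79 to 13.07 in adult SNI, 12.78 to 13.1 in the adult controls, 12.47 to 13.03 in young SNI and 12.86 to 13.13 in the young controls. The mean of 12 injury genes of sensory neurons, among them Atf3 and Gap43, was 10.3 to 10.73 in adult SNI and 5.51 to 6.81 in the adult controls, while in the young it was 7.82 and 9.6 in SNI, 8.94 and 5.58 in contralateral and 9.1, 10.27 and 7.4 in sham. These genes therefore separated the labelled adult groups. In the young the groups overlapped, with 3 of the 5 control arrays above SNI replicate 1 and only sham replicate 2 above SNI replicate 2. The median young SNI difference of these genes was 1.42 against contralateral and -0.23 against sham. One array stood apart. In young SNI replicate 2 the mean of 11 central nervous tissue genes was 10.27, against 3.34 to 3.98 in the other 15 arrays, with Mobp (oligodendrocyte myelin) at 14.13 against at most 3.78 and Slc12a5 (the chloride transporter of central neurons) at 11.79 against at most 1.89. Results that rest on it are given with and without it. The mean of 7 skeletal muscle genes ranged from 4.23 to 13.51 over the other 15 arrays. Xist, the RNA of the inactive X chromosome, was at 2.32 to 2.57 in all adult arrays, at 2.35 and 2.36 in 2 young control arrays and at 9.77 to 12.05 in the other 5 young arrays.

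**Figure D1:**
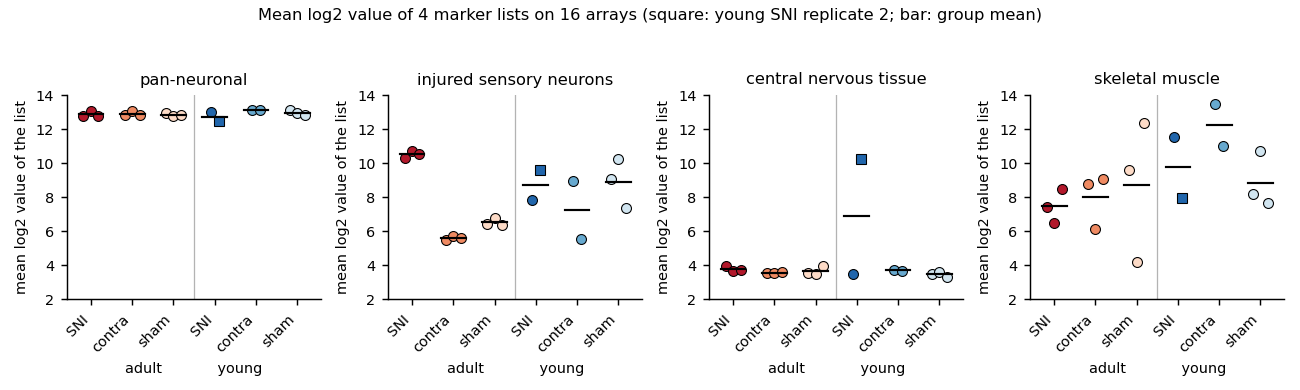
Mean log2 value of 4 marker gene lists (y axis) on each of the 16 arrays, by group (x axis, SNI left of contralateral and sham, adult left of young). Points are arrays, bars are group means and the square is young SNI replicate 2, whose central nervous tissue list reached 10.27 against 3.34 to 3.98 elsewhere.

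After SNI in the adult, Kcna2 fell, and the other 8 genes had lower mean values than the adult controls that did not pass the test. Of the 13 Affy_IDs, 1 was called lower and 0 higher against the mean of both adult controls (limma over all Affy_IDs, Benjamini-Hochberg adjusted p under 0.05), where 1.28% of all Affy_IDs were called and 0.177% were called lower. At an unadjusted p under 0.05 there were 7 of 13, and 10.0% of all. The fitted difference was below 0 for 9 of 9 genes, also with quantile normalization and without any 1 array. Its median was -0.58 on the log2 scale, against -0.03 over all Affy_IDs, of which 65.9% were below 0. The members were chosen with earlier results of these data known, so the counts of members here and below are a description. Of the 9 genes, 8 had a mean over 4 on the Affy_ID that stands for the gene. By a different measure, 18540 of all 31042 Affy_IDs were above 4 on at least 2 arrays, so these counts cannot be compared as shares. All 3 adult SNI arrays lay below all 6 adult control arrays for 5 of the 13 Affy_IDs, which belong to Kcna2, Kcnd1, Kcns1 and Kcns3, and for 2.58% of all Affy_IDs.

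Kcna2 encodes Kv1.2, the Kv1 subunit that is abundant in large myelinated sensory neurons and at the juxtaparanodes of their axons. Its main Affy_ID, 1379092_at, had log2 values of 12.54, 12.22 and 12.07 in adult SNI, 12.83, 13.06 and 12.78 in adult contralateral, and 12.87, 12.80 and 12.83 in adult sham DRG. Every SNI value was below every control value. The difference from the mean of the controls was -0.58 (SE 0.12, limma adjusted p = 0.0402), a level 0.669 times that of the controls. Against contralateral alone it was -0.61 (SE 0.14, adjusted p = 0.0728) and against sham alone -0.56 (SE 0.14, adjusted p = 0.164), and these 2 comparisons share the SNI arrays. The call was not kept with the replicate number as a block (adjusted p = 0.0579), when the 6 comparisons of SNI with a control were adjusted together (adjusted p = 0.0924), in a fit of the adult arrays alone (adjusted p = 0.0571), or when any 1 of 10 arrays, 8 of them adult, was left out (adjusted p of 0.0545 to 0.213). The second Kcna2 Affy_ID, 1370612_at, had 5.17, 5.14 and 4.56 in adult SNI, 6.21, 5.73 and 6.55 in adult contralateral and 5.66, 5.91 and 5.70 in adult sham. It again placed all SNI arrays below all controls, with a difference of -1.0 (SE 0.32, adjusted p = 0.232).

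Kcna1 and Kcna4 encode the other Kv1 subunits. Kcna1 (Kv1.1), which assembles with Kv1.2 beside the nodes, had 11.67, 11.96 and 11.63 in adult SNI, 12.09, 12.26 and 12.00 in adult contralateral and 11.79, 12.16 and 11.95 in adult sham. The groups overlapped through the second SNI array, and the difference from both controls was -0.29 (SE 0.13, adjusted p = 0.462). Kcna4 (Kv1.4), the rapidly inactivating Kv1 subunit known from small sensory neurons, had 7.60, 7.34 and 6.43 in adult SNI, 8.39, 8.28 and 7.83 in adult contralateral and 7.39, 8.16 and 7.72 in adult sham. All SNI values were below all contralateral values, and sham replicate 1 lay among the SNI values. The difference was -0.84 (SE 0.36, adjusted p = 0.459).

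The Kv2 subunit gene Kcnb2 (Kv2.2, a delayed rectifier) varied widely between arrays of a group. Its values were 7.47, 8.47 and 6.23 in adult SNI, 9.45, 9.32 and 8.56 in adult contralateral and 7.79, 8.86 and 7.69 in adult sham. The SNI arrays were all below the contralateral arrays and overlapped the sham arrays. The difference from both controls was -1.22 (SE 0.53, adjusted p = 0.462), and from contralateral alone -1.72 (SE 0.61, adjusted p = 0.325).

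The silent Kv9 subunit genes were among the members whose groups did not overlap. Kcns1 (Kv9.1) had 8.55, 9.04 and 8.56 in adult SNI, 9.59, 9.91 and 9.39 in adult contralateral and 9.44, 9.86 and 9.42 in adult sham. Kcns3 (Kv9.3) had 10.90, 10.70 and 10.41 in adult SNI, 11.74, 11.92 and 11.54 in adult contralateral and 11.15, 11.69 and 11.56 in adult sham. For both genes each SNI array was below each control array, by a fitted -0.88 (SE 0.57, adjusted p = 0.729) for Kcns1 and -0.93 (SE 0.36, adjusted p = 0.375) for Kcns3, or 0.543 and 0.525 times the control level. The variance in this model is shared by the 6 groups and included the young SNI pair, whose Kcns1 values were 8.49 and 4.83. Without young SNI replicate 2 the same differences had adjusted p = 0.0186 (Kcns1) and 0.0307 (Kcns3) in limma, so that 3 of 13 Affy_IDs were called, Kcna2 included, where 1.97% of all were called. Without young SNI replicate 1 in its place these values were the same, since a single array left in the group adds no spread. When the adult arrays were fitted alone Kcns3 was called (adjusted p = 0.0404), where 1.54% of all were, and Kcns1 was not (adjusted p = 0.0642).

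Of the Kv4 genes, Kcnd1 (Kv4.1) had 10.48, 10.65 and 10.27 in adult SNI, 10.95, 10.98 and 10.93 in adult contralateral and 10.84, 10.79 and 10.69 in adult sham. The groups did not overlap, although the highest SNI array was close to the lowest sham array, and the difference was -0.40 (SE 0.33, adjusted p = 0.795). Kcnd3 (Kv4.3), the A-type channel of small sensory neurons, had 9.42, 9.20 and 8.84 in adult SNI, 9.88, 10.12 and 9.68 in adult contralateral and 8.49, 9.71 and 9.76 in adult sham on 1378111_at. Sham replicate 1 was the lowest adult array, below SNI, and the other 5 controls were above all SNI arrays. The difference was -0.45 (SE 0.33, adjusted p = 0.768). A second Kcnd3 Affy_ID, 1369144_a_at, had the same low sham array, at 8.00, and a difference of -0.65 (SE 0.27, adjusted p = 0.427), while the third, 1369145_a_at, was between 3.67 and 5.82 on all arrays with a difference of -0.33 (SE 0.41).

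Kcnq3 (Kv7.3, a subunit of the M-channel) had a mean log2 value under 4 on both of its Affy_IDs. Its 1388052_a_at had 3.06, 3.72 and 3.18 in adult SNI, 3.36, 3.68 and 3.31 in adult contralateral and 3.58, 3.67 and 3.43 in adult sham, with overlapping groups and a difference of -0.19 (SE 0.35, adjusted p = 0.841). Its other Affy_ID, 1369005_at, stayed between 1.63 and 1.72 on all 16 arrays.

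**Figure D2:**
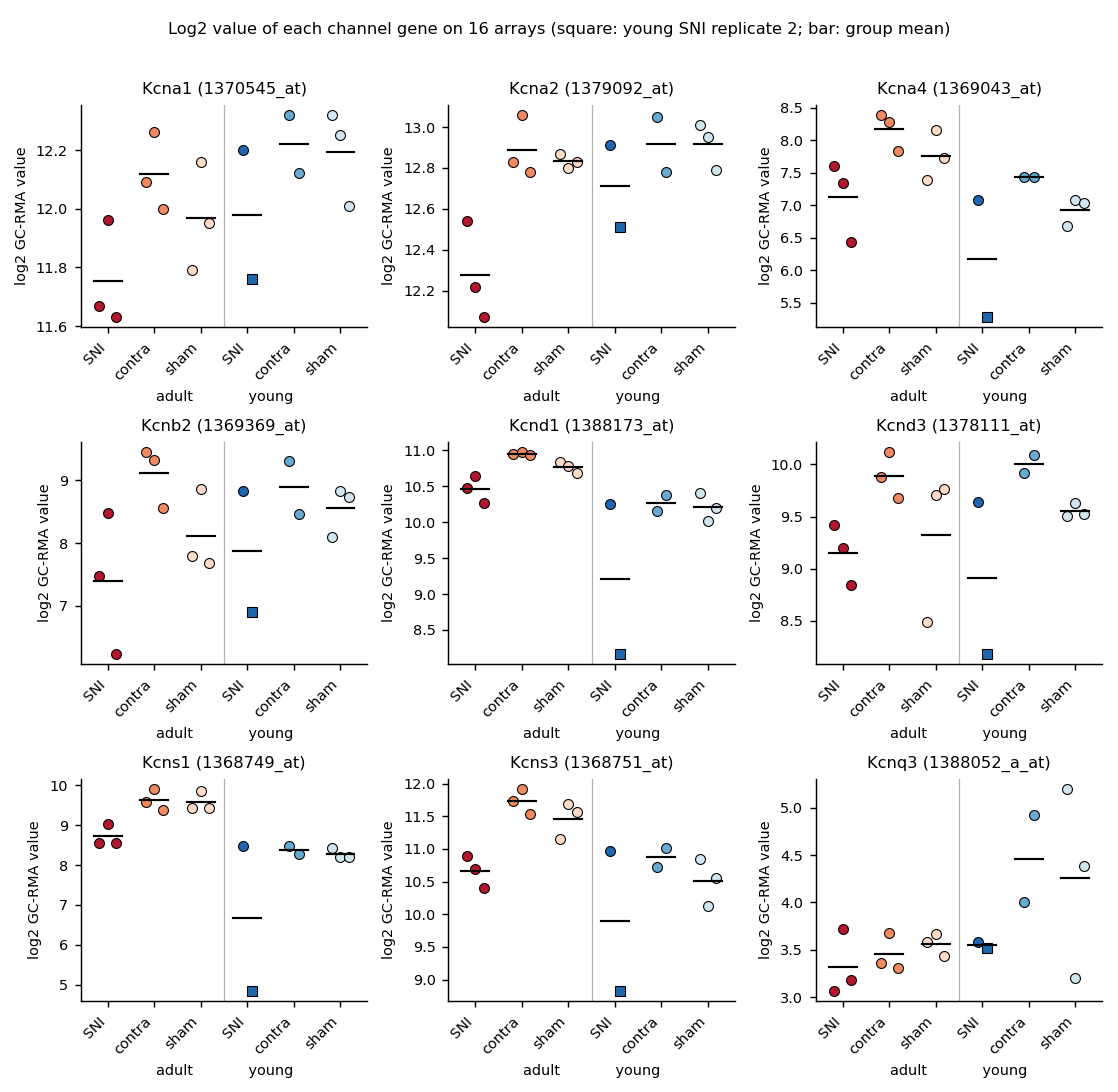
Log2 GC-RMA value (y axis, scaled to each gene) of the 9 channel genes on the 16 arrays by group (x axis). Points are arrays, bars group means and the square is young SNI replicate 2. In Kcna2, Kcnd1, Kcns1 and Kcns3 the 3 adult SNI points lie below all 6 adult control points.

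Against each adult control on its own no member passed. Against contralateral 0 of 13 Affy_IDs were called by limma, where 1.03% of all were, and 7 of 13 had an unadjusted p under 0.05, as did 9.83% of all. Without young SNI replicate 2, Kcna2 (adjusted p = 0.0438), Kcns1 (adjusted p = 0.0371) and Kcns3 (adjusted p = 0.0382) were called against contralateral, 3 of 13 where 1.38% of all were. Against sham 0 of 13 were called, where 0.48% of all were, and 1 had an unadjusted p under 0.05, as did 7.33% of all. The contralateral and sham DRG of the adult were compared too, with 0 of 13 members and 0.0% of all Affy_IDs called, and 0 of 13 at an unadjusted p under 0.05, against 2.01% of all. The contralateral minus sham difference was above 0 for 8 of 9 genes, with a median of 0.18, against 0.02 over all Affy_IDs. It was also above 0 for 19 of the 22 other Kv alpha subunit genes with an Affy_ID, with a median of 0.04. The share of all Affy_IDs above 0 was not counted for this comparison.

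Adult SNI and contralateral arrays of the same number varied together over all Affy_IDs, so they were also set side by side. In these 3 pairs the SNI array was below its contralateral partner in all 3 for 8 of the 9 genes (11 of 13 Affy_IDs, or 84.6%), where 33.1% of all Affy_IDs were. Kcns3 differed by -0.84, -1.22 and -1.13 and Kcns1 by -1.04, -0.87 and -0.83 in pairs 1, 2 and 3. Kcnb2 differed by -1.98, -0.85 and -2.33, and Kcna2 by -0.29, -0.84 and -0.71. The Kv9 pairs were thus close to each other while the Kcnb2 pairs were not. Kcnq3 was the exception, with -0.30, 0.04 and -0.13. In a fit of these 6 arrays alone with the pair as a block, Kcns1 was called at -0.91 (limma adjusted p = 0.0423), where 1.48% of all were, and Kcns3 at -1.06 had an adjusted p = 0.0533. In the model of all 16 arrays the block joined all arrays of an age with the same number, sham included. It was therefore not a test of these pairs alone, and the variance still included the young SNI pair. There Kcns1 at the same -0.91 was not called (adjusted p = 0.676).

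**Figure D3:**
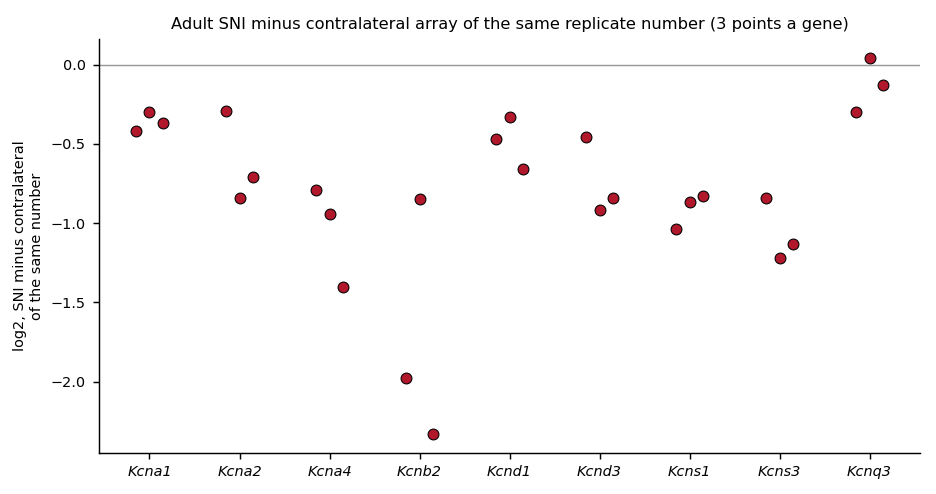
Log2 value of each adult SNI array minus the contralateral array of the same replicate number (y axis) for the 9 channel genes (x axis), 3 points a gene. All points are below 0 except 1 of Kcnq3 at 0.04.

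Other genes moved with injury in the same arrays. Macrophage genes had a list mean of 5.59 to 5.94 in adult SNI and 4.18 to 4.88 in the adult controls (median difference 1.48). All 10 differences were above 0 and 3 were called higher, where 1.1% of all Affy_IDs were. Only 4 of the 10 genes had a mean over 4. Genes of large A-fibre neurons had 9.92 to 10.28 in adult SNI and 10.27 to 10.53 in the adult controls (median -0.37). Of these 11 genes, 9 were below 0, as were 65.9% of all Affy_IDs. Only 1 of them, Esrrg, was called lower, where 0.177% of all Affy_IDs were. Nociceptor genes had 10.4 to 10.76 in adult SNI and 10.81 to 11.07 in the adult controls (0 of 9 passed, median -0.33). The pan-neuronal genes had a median difference of 0.01, with 0 of 13 passing. The part of these cell type genes in the channel values was not tested.

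In the young, no channel gene passed after SNI. The injury genes did not separate the young groups either, with median SNI differences of -0.23 against sham and 1.42 against contralateral. The young comparisons may therefore miss an injury response. Against the mean of both young controls 0 of 13 Affy_IDs were called by limma, where 0.0226% of all were, and 4 had an unadjusted p under 0.05, as did 7.86% of all. Against young sham and young contralateral 0 of 13 were called too, where 0.0161% and 0.00966% of all were, with 2 and 4 of 13 at an unadjusted p under 0.05, against 5.91% and 5.94% of all. No Affy_ID of the members had both young SNI arrays below all 5 young controls (0 of 13, with 1.92% of all). The fitted differences were again below 0 for 9 of 9 genes, where 46.6% of all Affy_IDs were. Their median was -0.85, against 0.01 over all Affy_IDs, but these differences rested on young SNI replicate 2. Without it 5 of 9 genes were below 0 and the median was -0.01. When any 1 of the 5 young control arrays was left out, 0 of 13 were called in each of these 3 comparisons.

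Kcns1 had 8.49 and 4.83 in young SNI, 8.48 and 8.28 in young contralateral and 8.42, 8.19 and 8.21 in young sham. Replicate 1 was the highest of the 7 young arrays and replicate 2 the lowest of all 16. The difference from both controls was -1.67 (SE 0.67, adjusted p = 0.627), and without replicate 2 it was 0.16. Kcns3 had 10.97 and 8.82 in young SNI, 10.73 and 11.01 in young contralateral and 10.85, 10.13 and 10.56 in young sham, with a difference of -0.80 (SE 0.43), which was 0.28 without replicate 2. Kcnd1 had 10.25 and 8.16 in young SNI, 10.16 and 10.38 in young contralateral and 10.41, 10.02 and 10.20 in young sham, with -1.04 (SE 0.39) and, without replicate 2, 0.01. In these 3 genes replicate 1 was within the range of the young controls or above it. When replicate 1 was left out instead, 5 of 13 Affy_IDs were called lower, those of Kcns1 (-3.50), Kcnd1 (-2.08), Kcna4 (-1.91), Kcns3 (-1.87) and Kcnd3 (-1.60), where 7.25% of all were called lower. The SNI arm of that fit is replicate 2 alone, so the spread in it comes from the other 5 groups. The array whose values make these differences is the one with the central nervous tissue genes, whose part was not tested.

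Kcna4 had 7.08 and 5.28 in young SNI, 7.44 and 7.44 in young contralateral and 6.68, 7.08 and 7.04 in young sham. Kcnd3 had 9.64 and 8.18 in young SNI, 9.92 and 10.09 in young contralateral and 9.51, 9.63 and 9.52 in young sham, and Kcnb2 8.83 and 6.91 in young SNI, 9.31 and 8.46 in young contralateral and 8.10, 8.82 and 8.73 in young sham. In these genes too replicate 2 was the lowest young array and replicate 1 lay within the range of the controls. The dim 1369145_a_at of Kcnd3 did not share this, with 4.70 in replicate 1 and 5.39 in replicate 2. Kcna2 had 12.91 and 12.51 in young SNI, 13.05 and 12.78 in young contralateral and 13.01, 12.95 and 12.79 in young sham (difference -0.21, SE 0.14, adjusted p = 0.827), and Kcna1 12.20 and 11.76 in young SNI, 12.32 and 12.12 in young contralateral and 12.32, 12.25 and 12.01 in young sham (difference -0.23, SE 0.15, adjusted p = 0.796). The second Kcna2 Affy_ID, 1370612_at, had a difference of -0.33 (SE 0.38) from both young controls and 0.02 (SE 0.41) from young sham. Kcnq3 was at 3.58 and 3.52 in young SNI and at 3.20 to 5.20 in the young controls. Between young contralateral and young sham 0 of 13 were called, with 0.0% of all Affy_IDs, and 0 of 13 had an unadjusted p under 0.05, as did 2.25% of all.

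**Figure D4:**
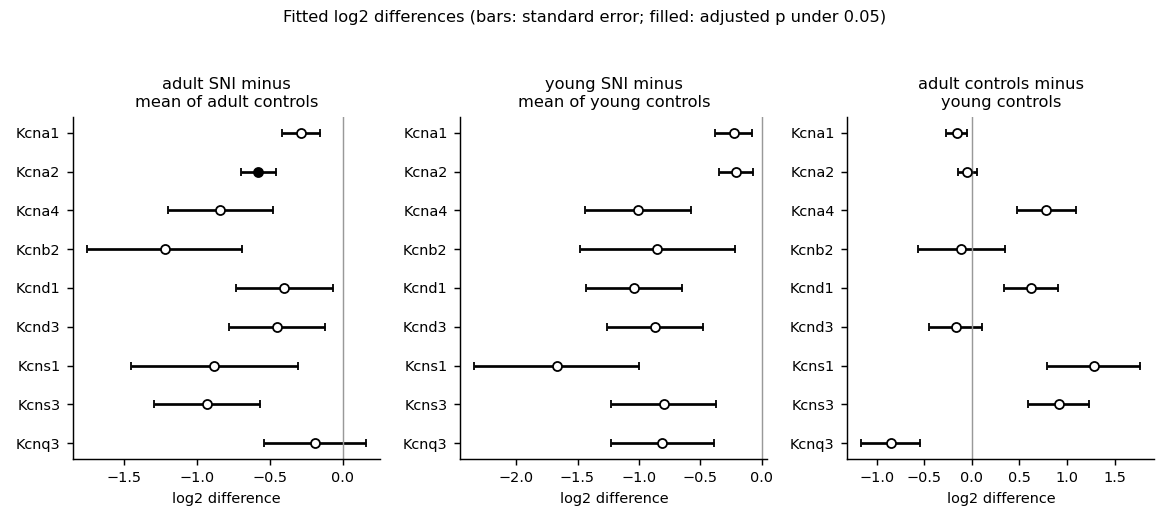
Fitted log2 differences (x axis) of the 9 channel genes (y axis) for adult SNI minus adult controls, young SNI minus young controls and adult minus young controls. Bars are standard errors and a filled point passed an adjusted p of 0.05, which Kcna2 at -0.58 did in the adult.

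The responses of the 2 ages were then compared directly, as the adult difference minus the young difference from their own controls. No member was called (0 of 13, where 0.0966% of all Affy_IDs were, and 0 of 13 at an unadjusted p under 0.05, against 8.0% of all). The difference in response was -0.38 (SE 0.19, adjusted p = 0.617) for Kcna2, 0.78 (SE 0.88) for Kcns1, 0.64 (SE 0.51) for Kcnd1 and -0.13 (SE 0.57) for Kcns3. Without young SNI replicate 2 the value was -1.05 for Kcns1 (adjusted p = 0.332) and -0.41 for Kcnd1, so their sign turned. For Kcna2 and Kcns3 the young response also rested on that array. Kcna2 was at 12.91 in young SNI replicate 1, 12.51 in replicate 2 and 12.78 to 13.05 in the young controls. Kcns3 was at 10.97, 8.82 and 10.13 to 11.01 in the same order. With no member called, the fall of Kcna2 in the adult was not shown to differ from the young response.

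Between ages without injury, 3 channel genes had adult control arrays wholly above the young control arrays. They were Kcns1, with 9.39 to 9.91 in the 6 adult controls and 8.19 to 8.48 in the 5 young controls, Kcns3, with 11.15 to 11.92 in the adult and 10.13 to 11.01 in the young, and Kcnd1, with 10.69 to 10.98 in the adult and 10.02 to 10.41 in the young. These are 3 of 13 Affy_IDs, and 0 lay wholly below, where 3.54% of all Affy_IDs lay wholly above and 3.05% wholly below. The adult minus young difference was 1.28 (SE 0.49, adjusted p = 0.189) for Kcns1, or 2.43 times the young level, 0.91 (SE 0.32, adjusted p = 0.142) for Kcns3 and 0.62 (SE 0.28, adjusted p = 0.278) for Kcnd1. In the fit of all 16 arrays 0 of 13 were called, where 4.36% of all were, and 5 of 13 had an unadjusted p under 0.05, as did 17.8% of all. Without young SNI replicate 2, an array of neither control group, limma called Kcns1 (adjusted p = 0.000886), Kcnd1 (adjusted p = 0.00337) and Kcns3 (adjusted p = 0.00895), 3 of 13 where 6.63% of all were. With array weights Kcns1, Kcns3 and Kcna4 were called, where 8.27% of all were.

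Kcna4 had 7.39 to 8.39 in the adult controls and 6.68 to 7.44 in the young controls, with a difference of 0.78 (SE 0.31, adjusted p = 0.217). Kcnq3 had a difference of the opposite sign, at 3.31 to 3.68 in the adult controls and 3.20 to 5.20 in the young controls, with -0.85 (SE 0.31, adjusted p = 0.156). Young sham replicate 2 had the lowest Kcnq3 of the young controls, at 3.20, so leaving it out widened the difference. It was also the control array with the highest injury genes. Without it Kcnq3, whose mean was under 4, was called at -1.12 (limma adjusted p = 0.0213), 1 of 13 where 3.56% of all were. The remaining genes had smaller differences, -0.05 (SE 0.10) for Kcna2, -0.11 (SE 0.46) for Kcnb2, -0.16 (SE 0.11) for Kcna1 and -0.17 (SE 0.28) for Kcnd3. Kcnd1 lies on the X chromosome, and the young pools with Xist at 2.35 and 2.36 had Kcnd1 at 10.16 and 10.02. The other 3 young controls were at 10.20, 10.38 and 10.41. All adult arrays had low Xist too, and the adult controls had Kcnd1 at 10.69 to 10.98. High Xist was seen only in young arrays, so in the age comparisons it cannot be fully told apart from age. The muscle gene list had 4.23 to 12.4 in the adult controls and 7.68 to 13.51 in the young controls, and the injury genes 5.51 to 6.81 in the adult and 5.58 to 10.27 in the young. The part of the Xist level, the muscle genes and the injury genes in the age differences was not tested.

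Adult SNI was also set against young SNI. Here 0 of 13 members were called, where 2.64% of all Affy_IDs were, and 4 of 13 had an unadjusted p under 0.05, as did 19.4% of all. Kcns1 differed by 2.06 (SE 0.73, adjusted p = 0.161) and Kcnd1 by 1.26 (SE 0.42, adjusted p = 0.137), but without young SNI replicate 2 these were 0.23 and 0.22, and for Kcns3 the difference was 0.78 (SE 0.47) with that array and -0.30 without it. For Kcna2 it was -0.43 (SE 0.15, adjusted p = 0.162), and -0.63 (adjusted p = 0.177) without that array.

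Over the 6 groups the members fell into different orders. For Kcns1 and Kcns3 the adult control groups had the highest means and young SNI, through its replicate 2, the lowest, and adult SNI stood between the adult controls and the young controls for Kcns1 (means of 8.72 in adult SNI, 9.57 to 9.63 in the adult controls, and 8.27 to 8.38 in the young controls). The range of adult SNI in Kcns1 was apart from those of both neighbours in this order, adult sham above and young contralateral below, while in Kcns3 it overlapped the young groups. Kcnd1 had the same order as Kcns1, with adult SNI apart from adult sham and overlapping young contralateral. For Kcna2, Kcna1 and Kcnb2 adult SNI had the lowest mean, at 12.28, 11.75 and 7.39, and its range overlapped that of the next group, which was young SNI for Kcna2 and Kcnb2 and adult sham for Kcna1. Kcnd3 and Kcna4 were highest on a contralateral side, the young one for Kcnd3 and the adult one for Kcna4, and lowest in young SNI. The other Affy_IDs of Kcnd3 differed in their lowest group. For 1369144_a_at it was adult SNI, at 8.16 against 8.54 in young SNI, and for 1369145_a_at young sham, at 4.47. Kcnq3 was highest in the young controls, and the ranges of all neighbouring groups in its order overlapped.

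Of the other Kv alpha subunit genes, 22 of 31 listed had an Affy_ID, 11 of them with a mean over 4. None of the 22 passed in adult SNI against the mean of the controls. Their median difference was -0.08, with 19 below 0, where 65.9% of all Affy_IDs were. The differences furthest from 0 were those of Kcnv1 and Kcnc2. Kcnv1 (Kv8.1, another silent subunit) had 8.41, 7.81 and 6.86 in adult SNI, 8.84, 8.86 and 8.77 in adult contralateral and 8.85, 8.79 and 8.74 in adult sham, with a difference of -1.12 (SE 0.52, adjusted p = 0.528). Kcnc2 (Kv3.2, a fast delayed rectifier) had 8.92, 8.00 and 7.31 in adult SNI, 9.37, 9.14 and 9.10 in adult contralateral and 9.11, 9.03 and 9.11 in adult sham, with -1.07 (SE 0.30, adjusted p = 0.147). In both genes all SNI arrays were below all adult controls and the third was the lowest.

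Auxiliary subunits bind the alpha subunits and set their trafficking and inactivation. Of 14 such genes with an Affy_ID, 13 had a difference below 0 in adult SNI, where 65.9% of all Affy_IDs did. Their median was -0.37, and 1 passed, where 1.28% of all were called. This was Kcnip4 (KChIP4, a calcium-binding partner of Kv4 channels), with 10.00, 10.07 and 9.53 in adult SNI, 10.83, 11.02 and 10.55 in adult contralateral and 10.25, 10.73 and 10.53 in adult sham. All SNI arrays were below all adult controls. Kcnip4 fell by 0.79 (SE 0.17, limma adjusted p = 0.0487) against both controls. Against contralateral it fell by 0.93 (SE 0.19, adjusted p = 0.0481), where 1.03% of all Affy_IDs were called. These 2 comparisons share the SNI arrays, and Kcnip4 was not called against contralateral under 17 of 25 alternatives (adjusted p of up to 0.196). Against both controls it was not called under 17 of 24 alternatives, the replicate block among them (adjusted p = 0.0784), and was called without young SNI replicate 2 (adjusted p = 0.0247). Between ages the adult minus young difference of the controls was above 0 for 14 of 14 auxiliary genes. Their median was 0.33, against 0.03 over all Affy_IDs, whose share above 0 was not counted. By limma 3 of the 14 passed, where 4.36% of all Affy_IDs were called. They were Kcnip4 at 0.71 (adjusted p = 0.022), Dpp10 (a Kv4 partner of the dipeptidyl peptidase family) at 1.18 (adjusted p = 0.0315) and Kcnip1 at 0.58 (adjusted p = 0.0438). Kcnip4 was not called under 3 of 22 alternatives, Dpp10 under 9 and Kcnip1 under 11. Kcnip3 (KChIP3), chosen after its values were seen, had 8.81 to 9.57 in adult SNI, 9.56 to 9.98 in the adult controls and 8.50 to 8.95 in the young controls, with an age difference of 1.14 (SE 0.35, adjusted p = 0.0987).

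Juxtaparanode and node genes encode the proteins that gather Kv1 and sodium channels along myelinated axons. All 16 listed had an Affy_ID and 1 was called lower in adult SNI, where 0.177% of all Affy_IDs were. This was Lgi3, a secreted protein of the LGI family. It had 10.52, 10.63 and 10.53 in adult SNI, 11.25, 11.40 and 11.10 in adult contralateral and 11.24, 11.41 and 11.15 in adult sham. The SNI arrays were close together and all below the controls, with -0.70 (SE 0.13, limma adjusted p = 0.0228). It was not called under 7 of 24 alternatives (adjusted p of up to 0.109) and was called with the replicate block and without young SNI replicate 2 (adjusted p = 0.00304). Lgi1 of the same family was higher in the adult than in the young controls, by 0.51 (SE 0.12, adjusted p = 0.0352), and was not called under 10 of 22 alternatives. The median of the 16 genes in adult SNI was -0.10, with 9 below 0, where 65.9% of all Affy_IDs were.

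**Figure D5:**
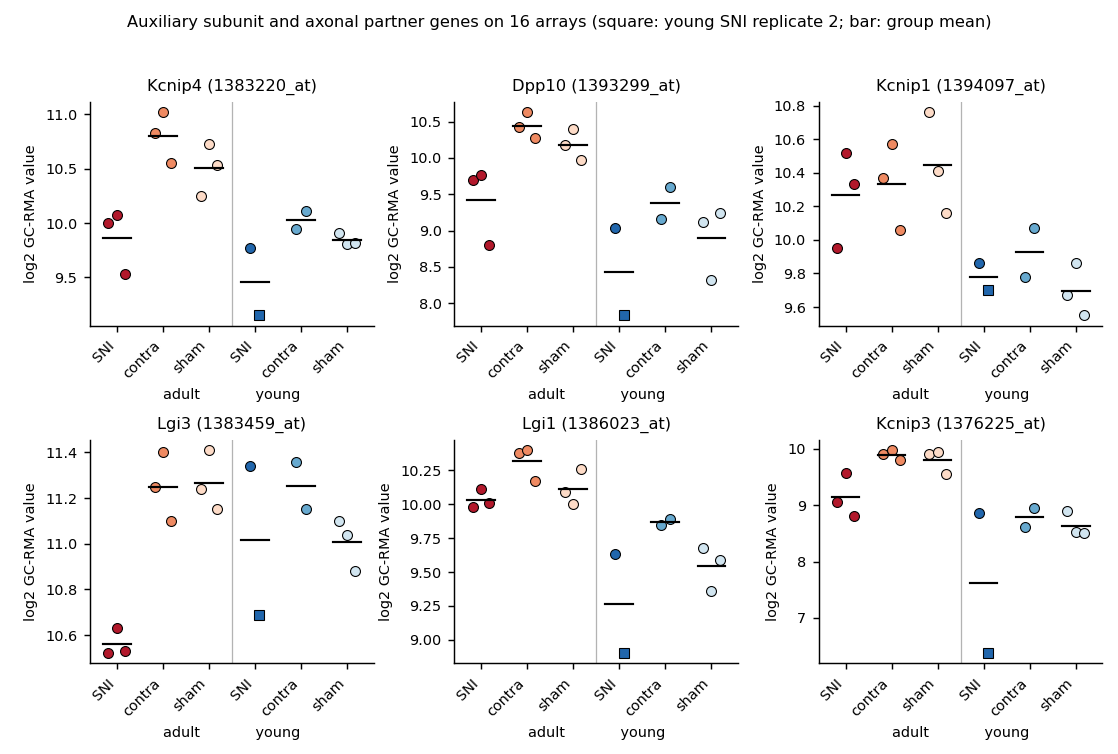
Log2 GC-RMA value (y axis, scaled to each gene) of 6 auxiliary subunit and axonal partner genes on the 16 arrays by group (x axis). Points are arrays, bars group means and the square is young SNI replicate 2. The adult SNI points of Lgi3 at 10.52 to 10.63 lie below all adult controls.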

How the data were processed

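Messenger RNA of pooled L4/L5 DRG was measured on 16 Affymetrix Rat Genome 230 2.0 arrays in 6 groups. The authors normalised the scanned arrays with GC-RMA, whose version is not given in the sources used here, removed 2 arrays as outliers and deposited log2 values per Affy_ID. A difference of 1 on this scale is a doubling, and at low values background sets the reading.

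All Affy_IDs but 57 controls were tested (31042, of which 20826 list 1 gene, 436 several and 9780 none), in 1 limma 3.58.1 model (R 4.3.3) of 6 group means with empirical Bayes variances (prior degrees of freedom 1.24). Each comparison's p was adjusted by Benjamini-Hochberg with a threshold of 0.05. The fit was tested on simulated data. The members and the gene lists were chosen with earlier results of these data known. All members are named, and of the other lists those that passed, or else the 2 with the largest differences. Lists were described by counts and medians over 1 Affy_ID a gene, the one with the highest mean. The 9 member symbols were unchanged in the GRCr8 gene reference. Promoters were taken from RefSeq, and 5 of the 9 genes matched an entry. Proteins were not analysed here. Tables and figures were made in Python 3.11.15 with numpy 2.4.6, pandas 2.3.3 and matplotlib 3.10.9.

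The numbers of adult SNI and contralateral arrays were taken as pairs, since the deviations of same-numbered arrays from their group means correlated in each pair (0.449, 0.445 and 0.362). Alternatives were a separate fit for each age, array weights, a robust prior or a trend of variance with intensity, a filter keeping Affy_IDs above 4 on at least 2 arrays (18540), quantile normalization, a replicate block, adjustment over 6 comparisons together and leaving out each array. The replicate block joined same-numbered arrays of an age, sham included, except in the fit of the adult SNI and contralateral arrays alone. Replicate arrays of a group are separate pools. In the main fit each p-value sets a difference against the spread between pools, shared over all 6 groups. The contralateral DRG came from SNI rats, so SNI and contralateral arrays may share animals.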

Additional observations from a re-analysis of the deposited data

How the results depend on the processing

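The number of member Affy_IDs called was 1 for adult SNI against the mean of the controls, where 1.28% of all Affy_IDs were called. It was 0 with the replicate block and 0 with adjustment over the 6 comparisons together, and 0 to 3 when 1 array was left out. For adult SNI minus contralateral it was 0, and 1 with each age on its own (Kcns3), 2 with array weights (Kcna2, Kcnb2), 1 with quantile normalization (Kcna2), 1 with the replicate block on the 6 arrays alone (Kcns1), and 0 to 3 when 1 array was left out. The replicate block over all arrays changed no other call of a member. Leaving out 1 array gave 0 to 1 for adult SNI minus sham, 0 to 4 for young SNI minus sham, 0 to 5 for young SNI minus contralateral and minus the mean of the controls, 0 to 2 for the difference in response, 0 to 4 for adult minus young SNI and 0 to 3 for adult minus young controls. Quantile normalization called 1 for adult minus young SNI (Kcna2). Array weights called 3 for adult minus young controls, where 8.27% of all Affy_IDs were called, against 4.36% in the main fit. The share called of all Affy_IDs thus moved between fits as well, so these counts alone do not show a change particular to the members. The cause of these changes was not tested, beyond the number of arrays that each fit holds.

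Some differences changed sign when young SNI replicate 2 was left out. Without replicate 2 and without replicate 1, Kcns1 gave 0.22 and -3.44 against young sham, 0.11 and -3.55 against young contralateral, 0.16 and -3.50 against both and -1.05 and 2.61 in the difference in response. Kcns3 gave 0.46 and -1.69, 0.10 and -2.05, and 0.28 and -1.87 against the same controls, and -0.30 and 1.85 for adult minus young SNI. Kcnd1 gave 0.04 and -2.05 against sham, 0.01 and -2.08 against both and -0.41 and 1.68 in the response, and Kcna4 gave 0.15 and -1.65 against sham. The young groups of 2 arrays and the dim Kcnq3 and 1369145_a_at of Kcnd3 limit the precision.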

Other observations

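The genes whose values over the 16 arrays were most like those of a channel gene are given as a description, since arrays of a group share their condition and young SNI replicate 2 lies far from the rest. Only Affy_IDs of 1 gene with a mean log2 value above 4 were searched. For Kcns1 they were Rarres1 (Pearson r = 0.990), Calml4 (0.989) and Nmb (0.986), and without young SNI replicate 2, an alternative chosen after seeing the data, Rarres1 (0.965), Nmb (0.963) and Kcnip3 (0.960). For Kcns3 they were Uqcc1 (0.979), Sertm1 (0.967) and Nmb (0.959). Without that array those of Kcns3 were Uqcc1 (0.957), C2h3orf80 (0.948) and Nptx1 (0.941). For Kcnd1 they were Slc66a3 (0.990), Htr3b (0.989, the serotonin receptor subunit) and Necab3 (0.989), and without that array Kcnip3, a calcium-binding partner of Kv4 channels, led with 0.975. For Kcna2 they were Rnf144a (0.937), Lias (0.903) and Nlk (0.872), and for Kcna1 Tns1 (0.917), Nlk (0.909) and Tle1 (0.900). For Kcna4 they were Hoxd1 (0.970), Cpne4 (0.964) and Mcm8 (0.961), for Kcnb2 Slco5a1 (0.954), Usp8 (0.931) and Myo5a (0.923), and for Kcnd3 Robo2 (0.957), Dgkh (0.939) and Rpa1 (0.937). Kcnq3 had Extl3 at 0.883. Without young SNI replicate 2, between 0 and 2 of the 3 named genes stayed among the nearest 3 of a member, and with Spearman's rank correlation also between 0 and 2.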
